A study of Drosophila melanogaster with 4 samples.

Results

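The genes described here encode the recognition and signalling proteins of the Toll and Imd pathways of *Drosophila melanogaster*. They number 39 of the 17753 genes in the authors' deposited table. They were chosen by name and pathway role, through the gene symbols of the BDGP6.54 annotation, and not by a cutoff on measured values. Earlier results of these data were known when they were chosen. The antimicrobial peptide genes that the pathways switch on were left out. The 39 fall into 16 recognition genes, 7 genes of the protease cascade that ends in the Toll ligand, 12 genes of the 2 cytoplasmic cascades and 4 genes for the transcription factors and their inhibitor.

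In flies, peptidoglycan recognition proteins (PGRPs) and glucan-binding proteins (GNBPs) detect microbial cell walls. Recognition in the hemolymph sets off a chain of serine proteases that cleaves the cytokine Spätzle, which binds the receptor Toll, and the NF-κB proteins Dorsal and Dif are then released from their inhibitor Cactus. In the Imd pathway, receptors that bind the peptidoglycan of Gram-negative bacteria act through the adaptor Imd, a caspase and kinases, and the NF-κB protein Relish is cleaved and enters the nucleus. Fat body and hemocytes, both present in the head, express many of these genes, and amidases that degrade peptidoglycan limit the response.

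RNA came from pooled heads of adults at day 30. The 2 lamin-B overexpression samples had the genotype Hsp70-Gal4/+; +/UAS-LamB.GFP, in which a driver with an Hsp70 promoter switches on lamin B tagged with GFP. The 2 samples of control siblings had the genotype +/+; +/UAS-LamB.GFP, so both groups carried the transgene and the controls lacked the driver. No sample carried the driver alone, so the driver, the chromosome it was inherited with and the overexpression cannot be told apart. Nothing in the labels states that the 2 samples of a group were separate cultures, so the p-values reflect a spread between samples that could be technical alone. In pooled heads, fewer cells of a type and less RNA per cell cannot be told apart either.

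The deposited table gives a mean normalized count over the 4 libraries and a test for each gene, but no value per library. Reads per library were therefore recovered from the 10 printed digits of the mean, the fold change and its standard error. They are named A and B for the overexpression libraries and C and D for the control libraries, and are given divided by the library's size factor as normalized reads. The size factors were 1.145 and 1.104 for A and B and 1.09 and 0.73 for C and D, which, if the libraries were alike in composition, corresponds to about 38393500 and 37027900 reads for the overexpression pair and about 36521000 and 24455900 for the controls. Library D was thus the shallowest. The 4 libraries carry no replicate number. Reads were recovered for all 39 members, with a single solution for 37. For nec and SPE, 4 and 2 solutions fitted, and the one with the smallest difference within groups is shown, so their spread within groups is a choice and nothing is read from it.

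Lam, the overexpressed gene, had 4414 and 4758 normalized reads in A and B against 2109 and 2130 in C and D, a ratio of 2.16. Head and neuron markers were abundant, with the rhodopsin gene ninaE at a mean normalized count of 1176380, and 4 of 10 were called lower and 0 higher, with a median log2 fold change of -0.22. The 4 were Rh4, Rh6, elav and ninaE, at -0.48, -0.46, -0.34 and -0.18 in the authors' deposited table. Markers of the gut and of the male reproductive tract also differed between the groups. Of 32 tested digestive enzyme genes 15 were called higher and 1 lower, beside 5.66% and 3.07% of all tested genes. Over 35 such genes with recovered reads, the summed normalized reads were 13747 and 19075 in A and B against 12890 and 12236. Most of these sums came from Amy-p, with a mean normalized count of 11240, so they say little of the other genes. Amy-p was called lower at -0.19 in the authors' deposited table. Of the 35 genes, 3 and 0 had no read in A and B against 20 and 17 in C and D. Over 26 testis and accessory gland genes the sums were 2469 and 6336 against 41.3 and 104. Library B held the most of both. Of 14 tested fat body markers 4 were called higher and 4 lower. In the authors' deposited table fon, Lsd-1, FASN1 and apolpp were higher, at 0.47, 0.43, 0.31 and 0.14. Lsp2, Lsp1beta, Lsp1alpha and Lpin were lower, at -0.84, -0.84, -0.55 and -0.19. The 11 fat body markers with recovered reads summed to 27510 and 27215 against 30184 and 30555. These sums leave out the most abundant, among them apolpp, FASN1, Lsd-1 and Lpin, so they give no direction for the fat body markers together. Hemocyte markers summed to 58828 and 56376 against 56297 and 55360 over 16 of 18 genes. Of the 18, SPARC was called higher at 0.16, and the crystal cell markers lz and PPO1 lower at -0.89 and -0.53 in the authors' deposited table. Some genes in these sums had several read solutions. The part of these markers in the differences described here was not tested.

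Lamin-B overexpression heads had more transcript of 4 of the 35 members with an adjusted p-value, and of no member significantly less. The largest difference was in PGRP-SA, a secreted receptor for the peptidoglycan of Gram-positive bacteria, at 2.15-fold the control level. The serpin gene nec, the receptor gene PGRP-SD and Rel, the gene for Relish, were higher by ratios of 1.26, 1.24 and 1.19. These 4 make up 11.4% of the tested members, beside 5.66% of all 11757 tested genes called higher and 4.06% of the 8677 tested genes with a mean of at least 100. No member was called lower, beside 3.07% of all tested genes and 4.09% of those with a mean of at least 100, and 0 members had an unadjusted p-value under 0.05 and a lower level by the authors' Wald test. Over the 35 members the median log2 fold change was 0.06, beside 0.01 over all tested genes. Of the 35, 28 were positive and 7 negative, beside 52.1% positive over all tested genes and 45.3% with a mean of at least 100. In log2 ratios of recovered reads, 23 were positive and 12 negative without library A. Without C these were 25 and 10, with 9 signs unlike the deposited ones, and with upper-quartile scaling 30 and 5. That scaling also raised the median log2 change of recovered reads over 10084 genes, from 0.016 to 0.047.

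**Figure D1:**
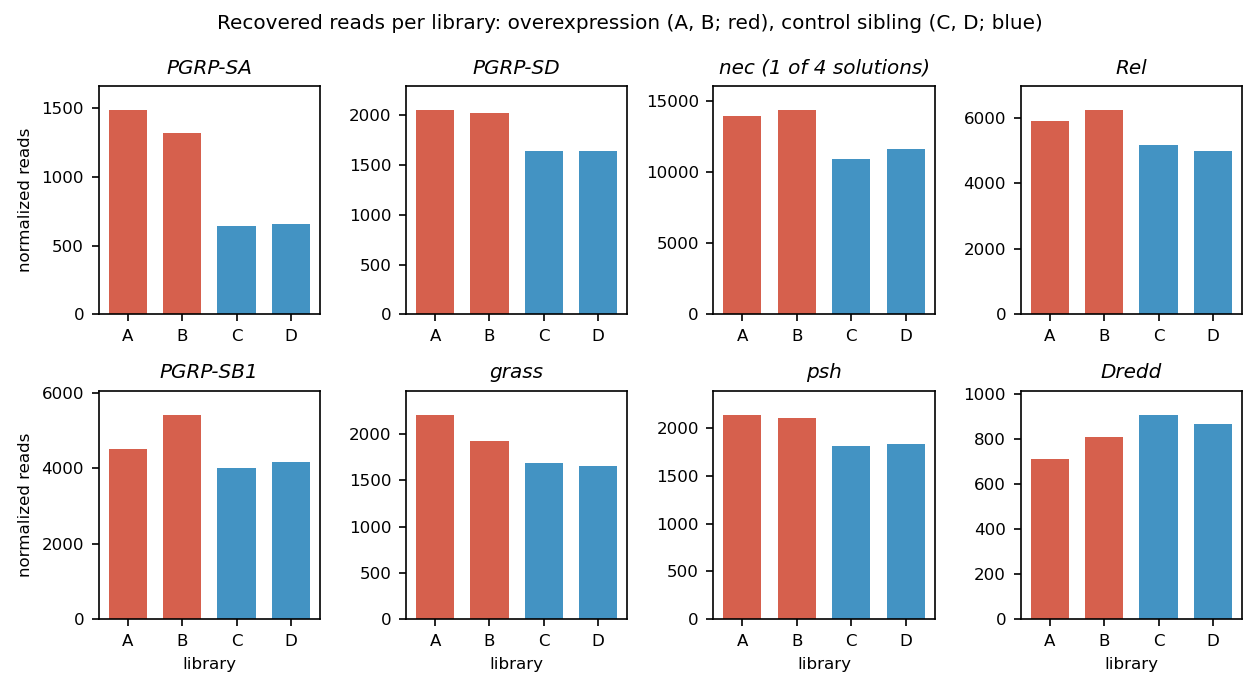
Normalized recovered reads (y axis, from 0) in overexpression libraries A and B (red) and control libraries C and D (blue) for 8 members, 1 bar a library. In PGRP-SA both red bars, 1483 and 1316, stand far above the blue bars, 644 and 659, while in the other 7 genes the groups stand closer. The bars of nec show 1 of 4 solutions.

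Among the 6 sensing receptors, PGRP-SA (FBgn0030310, chromosome X, 11561643 to 11562779) stood apart. It had 1483 and 1316 normalized reads in A and B against 644 and 659 in C and D. Both overexpression libraries lay above both controls, and the gap between the groups was wider than the distance within them. The log2 fold change in the authors' deposited table was 0.92 (standard error 0.118, adjusted p = 8.18e-13), a value shrunken towards 0, and with the shrinkage undone it was 1.10 (standard error 0.141). The ratio of the summed reads was 2.16, with a 95% exact interval of 2.02 to 2.306 that covers counting error only. The log2 ratio of normalized reads lay between 1.01 and 1.19 when each library was left out in turn. In limma fits to the recovered reads the adjusted p was 3.29e-05 with all libraries, and it was 0.0578 without A, 0.0476 without B, 6.86e-04 without C and 3.33e-05 without D.

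PGRP-SD (FBgn0035806, chromosome 3L, 7651180 to 7651900), a secreted receptor linked to both pathways, had 2049 and 2018 normalized reads in A and B against 1638 and 1637 in C and D. The libraries of each group were nearly equal and the groups did not overlap. The authors' deposited table gave a change of 0.29 on the log2 scale (standard error 0.0884, adjusted p = 0.0193). Its limma adjusted p was 0.00972 with all libraries, and it was 0.171, 0.188, 0.0595 and 0.0309 without A, B, C and D. The 721 bases of PGRP-SD lie within the span of CG32373 on the same strand, with no shared exon base, and 35 bases overlap CG7492 on the other strand.

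The other 4 sensing receptors were not called. PGRP-LC, the membrane receptor of the Imd pathway, had 3313 and 3141 normalized reads against 2984 and 3050. PGRP-LE, a soluble and intracellular receptor of the same pathway, had 497 and 544 against 556 and 515. GNBP1, which works with PGRP-SA, had 828 and 808 against 846 and 791, while GNBP3, a sensor of fungal glucan, had 3697 and 3650 against 3533 and 3684. The groups overlapped in PGRP-LE, GNBP1 and GNBP3 and not in PGRP-LC. In the authors' deposited table their log2 fold changes were 0.09 for PGRP-LC, -0.03 for PGRP-LE, 0.00 for GNBP1 and 0.03 for GNBP3. With shrinkage undone, the 95% interval of GNBP1 ran from -0.28 to 0.28, so a difference as large as that of PGRP-SA lay outside it.

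The 6 amidase genes split by level. PGRP-SB1, an amidase of the hemolymph, was the second highest member per kilobase (kb) of exon, at 7250 normalized counts per kb, while its neighbour PGRP-SB2 on the other strand had 6, 7, 11 and 2 reads in A, B, C and D. PGRP-SB1 had 4509 and 5398 normalized reads in A and B against 3995 and 4165. The overexpression libraries lay above the controls but differed from each other by a ratio of 1.20. The authors' deposited table gave 0.25 (standard error 0.0972, adjusted p = 0.0863), the largest Wald score among the amidases, and the gene was not called. By limma its adjusted p was 0.0499, which stood at 0.204 without A, 0.409 without B, 0.27 without C and 0.0887 without D.

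PGRP-LB and PGRP-SC2, amidases that hold down the Imd response, varied between libraries more than most members. PGRP-LB had 742 and 684 normalized reads in A and B against 597 and 783, and PGRP-SC2 had 361 and 456 against 272 and 422. In both genes the groups overlapped, and the controls of PGRP-SC2 differed by a ratio of 1.55, the widest spread within a group among members with a mean of at least 100. In the authors' deposited table the log2 fold changes were 0.04 for PGRP-LB and 0.13 for PGRP-SC2. The near-identical genes PGRP-SC1a and PGRP-SC1b had 10 and 5 reads in library B and none in A, C or D, so the split between the 2 is uncertain. In the authors' deposited table the shrunken log2 fold change was 0.02 for PGRP-SC1a, 0.01 for PGRP-SC1b, -0.01 for PGRP-SB2 and -0.01 for PGRP-LD. Without library B both groups of PGRP-SC1a and PGRP-SC1b stood at 0 reads. Library B also held the largest sum of digestive enzyme reads, and the part of gut RNA in these reads was not tested.

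The remaining recognition genes were not called either. PGRP-LA, a regulator of the Imd response in barrier epithelia, had 2114 and 2063 normalized reads against 1954 and 2044. PGRP-LF, a membrane inhibitor of the Imd pathway, had 367 and 381 against 393 and 372, and GNBP2, of the glucan-binding family, had 2199 and 1896 against 1909 and 2049. The groups were close in PGRP-LA and overlapped in PGRP-LF and GNBP2. The authors' deposited table gave 0.06 (standard error 0.0875, adjusted p = 0.842) for PGRP-LA, which had the largest Wald score of these, -0.02 for PGRP-LF and 0.04 for GNBP2. PGRP-LA, PGRP-LC and PGRP-LF are neighbours on 3L, and none of the 3 was called. PGRP-LD had 6, 4, 8 and 3 reads in A to D. It shares 3563 exon bases with Pmi, so its count depends on how shared reads were assigned. PGRP-LF, with 1355 exon bases, shares 602 of them with UGP on the other strand, which had a mean normalized count of 14066. Whether counting used strand is not known, so the count of PGRP-LF is uncertain too. PGRP-LD, PGRP-SB2, PGRP-SC1a and PGRP-SC1b were the 4 members without an adjusted p-value. The ratio of summed reads was 0.808 for PGRP-SB2, with an exact 95% interval of 0.345 to 1.89, and 0.735 for PGRP-LD, with an interval of 0.28 to 1.91, so changes of less than about that size were not detectable at this depth.

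**Figure D2:**
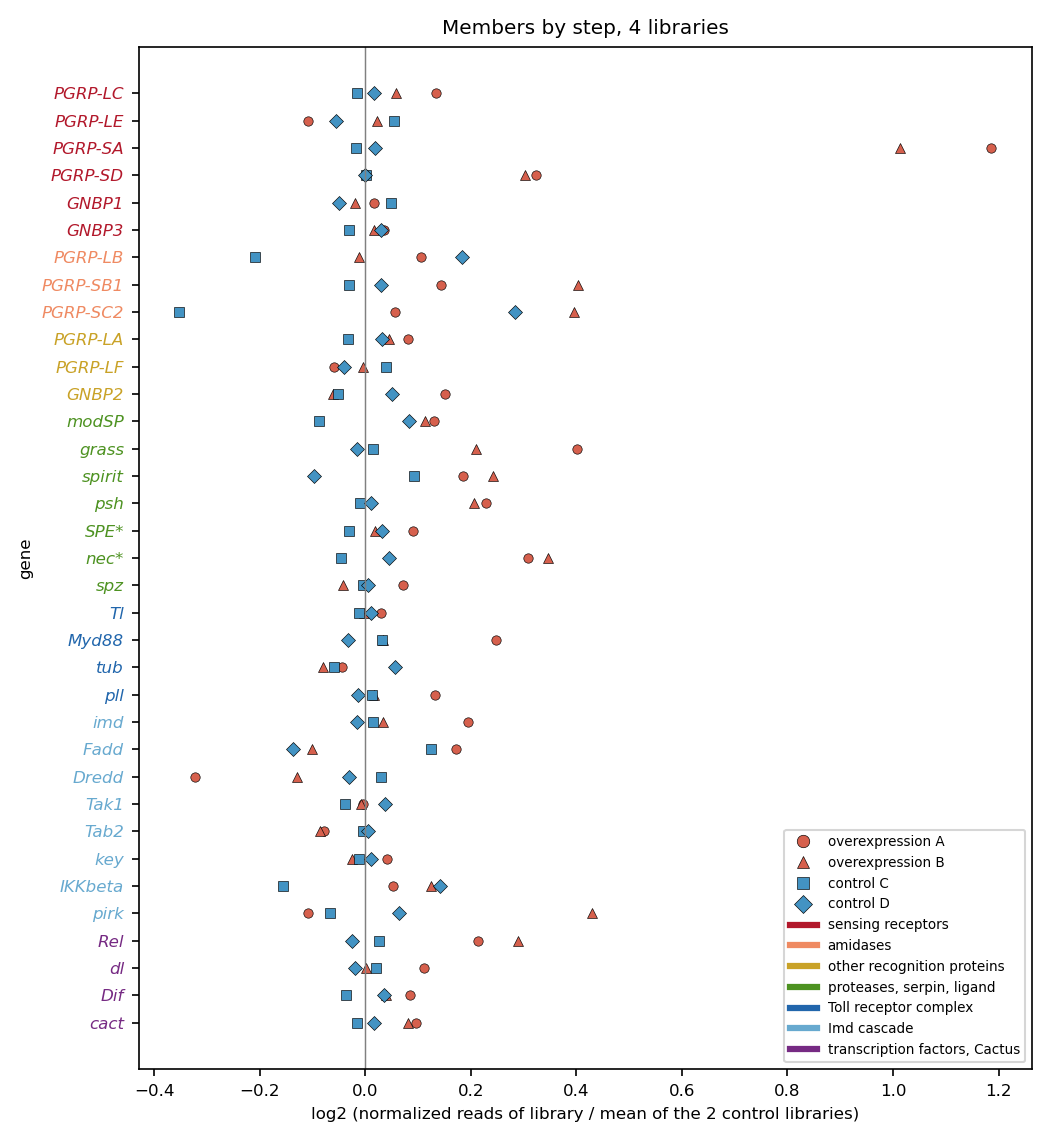
Log2 ratio of the normalized reads in each of the 4 libraries to the mean of the control libraries (x axis) for the 35 members with an adjusted p-value (y axis), with names coloured by step. PGRP-SA lies far to the right of all others, PGRP-SD and Rel lie to the right of their controls with little spread, nec and SPE (stars) show 1 of several solutions, and most cytoplasmic genes have red and blue points mixed.

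In the protease cascade all 7 log2 fold changes were positive, beside 52.1% of all tested genes. Their median was 0.17, and 1 gene was called. That gene was nec (FBgn0002930, chromosome 2R, 7156477 to 7158241), which encodes the serpin Necrotic, an inhibitor of the Persephone branch of the cascade. It was the highest member per kb of exon, at 7804 normalized counts per kb, and the solution shown has 14000.2 and 14368 normalized reads in A and B against 10952 and 11657 in C and D. In the other 3 solutions the groups overlap, as with 17180 and 11214 against 13064 and 9519 in one of them, so whether the libraries of nec overlap is not known. The ratio of the group means lay between 1.25 and 1.26 in all 4 solutions. The authors' deposited table, which does not rest on this choice, gave 0.32 (standard error 0.0582, adjusted p = 3.82e-06).

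The proteases upstream of Spätzle came next in size. Grass, which acts after microbial recognition, had 2204 and 1929 normalized reads in A and B against 1686 and 1651, with no overlap. The authors' deposited table gave 0.27 (standard error 0.103, adjusted p = 0.0757) for grass, short of the threshold, and limma gave an adjusted p of 0.0253. Persephone (psh), a protease that senses microbial proteases, had 2136 and 2102 normalized reads against 1810 and 1836, again with no overlap. Its log2 fold change was 0.20 (standard error 0.0863, adjusted p = 0.14) per the authors' deposited table, and its limma adjusted p was 0.0442. With the shrinkage undone, the 95% intervals ran from 0.08 to 0.54 for grass and from 0.03 to 0.40 for psh. Neither was called by limma when any of the 4 libraries was left out, with adjusted p from 0.0798 to 0.248 for grass and from 0.11 to 0.273 for psh.

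The other members of the cascade differed less. The protease genes modSP and spirit had 4469 and 4414 against 3844 and 4324, and 843 and 876 against 789 and 692, normalized reads in A and B against C and D. Both had overexpression libraries above the controls, and neither was called, at 0.11 (adjusted p = 0.527) and 0.17 (adjusted p = 0.527) per the authors' deposited table. SPE, the protease that cleaves Spätzle, had 9178 and 8732 normalized reads against 8433 and 8809. The ligand gene spz had 2155 and 1990 against 2043 and 2058. The groups overlapped in spz and in the solution shown for SPE but not in its other one, with log2 fold changes of 0.05 for SPE and 0.01 for spz in the authors' deposited table. The 95% interval of spz with shrinkage undone was -0.18 to 0.21.

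None of the 12 cytoplasmic genes was called by the authors' Wald test or by limma, and 0 of the 12 had an unadjusted Wald p-value under 0.05. Their median log2 fold change was 0.02, with 8 positive and 4 negative. Of the Toll branch, the receptor gene Tl had 3585 and 3508 normalized reads in A and B against 3485 and 3541, and the adaptor gene Myd88 had 1800 and 1552 against 1550 and 1482. The adaptor gene tub had 1496 and 1459 against 1480 and 1604, and the kinase gene pll had 640 and 590 against 589 and 579. The groups overlapped in Tl and tub, and stood barely apart in Myd88 and pll. Myd88 had the largest Wald score of these 4, at 0.12 (standard error 0.11, adjusted p = 0.648) per the authors' deposited table, and Tl, tub and pll stood at 0.01, -0.05 and 0.06. The 95% interval of Tl with shrinkage undone ran from -0.13 to 0.16.

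Of the Imd branch, Dredd (FBgn0020381, chromosome X, 633622 to 635545), the caspase gene that acts on Imd and Relish, was the member with the most negative value. It had 709 and 810 normalized reads in A and B against 905 and 868, with both overexpression libraries below both controls. Its log2 fold change was -0.18 (standard error 0.125, adjusted p = 0.483) per the authors' deposited table, so it did not pass the test. Tab2, which partners the kinase Tak1, also had both libraries lower, at 4379 and 4359 against 4611 and 4640, with -0.08 (adjusted p = 0.602) per the authors' deposited table. The adaptor gene imd had 1048 and 937 normalized reads against 925 and 906, barely above the controls, at 0.10 in the authors' deposited table.

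The rest of the Imd branch overlapped between groups. The death-domain adaptor gene Fadd had 286 and 236 normalized reads against 276 and 230, and the kinase gene Tak1 had 2441 and 2434 against 2384 and 2510. The gene key, which encodes the regulatory subunit of the IKK complex, had 1684 and 1607 against 1624 and 1649, and the catalytic subunit gene IKKbeta had 668 and 702 against 577 and 710. For pirk, an inhibitor of the pathway and itself induced by it, the reads were 245 and 355 against 252 and 276. Library B alone was high in pirk, and A lay below both controls. The authors' deposited table gave 0.02 for Fadd, 0.00 for Tak1, 0.01 for key, 0.07 for IKKbeta and 0.10 for pirk. Precision was lowest for the genes with few reads, with 95% intervals of -0.49 to 0.57 for Fadd and -0.39 to 0.76 for pirk after the shrinkage was undone, and of -0.18 to 0.17 for Tak1.

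Rel (FBgn0014018, chromosome 3R, 9044183 to 9047977) was called among the 4 genes of the last step. It had 5903 and 6220 normalized reads in A and B against 5179 and 4997 in C and D, with no overlap and a gap wider than the spread within groups. In the authors' deposited table its log2 fold change was 0.24 (standard error 0.0673, adjusted p = 0.00759), and limma gave an adjusted p of 0.0186. Without A, B, C and D the limma adjusted p of Rel was 0.26, 0.341, 0.0929 and 0.114. Rel and Nmdmc overlap in their spans on the same strand with no exon base in common, and Nmdmc stood at -0.10 in the authors' deposited table. Dif, dl and cact, which encode the Toll pathway's NF-κB proteins and their inhibitor, were all slightly positive and none was called. Dif had 6185 and 5996 normalized reads against 5691 and 5981, dl had 3239 and 3002 against 3041 and 2957, and cact had 5332 and 5277 against 4934 and 5048. The groups overlapped in dl and not in Dif or cact, with log2 fold changes of 0.06, 0.05 and 0.08 for Dif, dl and cact in the authors' deposited table. The interval of dl with shrinkage undone, -0.12 to 0.23, and that of Rel, 0.11 to 0.39, overlap, and the difference between these genes was not tested.

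**Figure D3:**
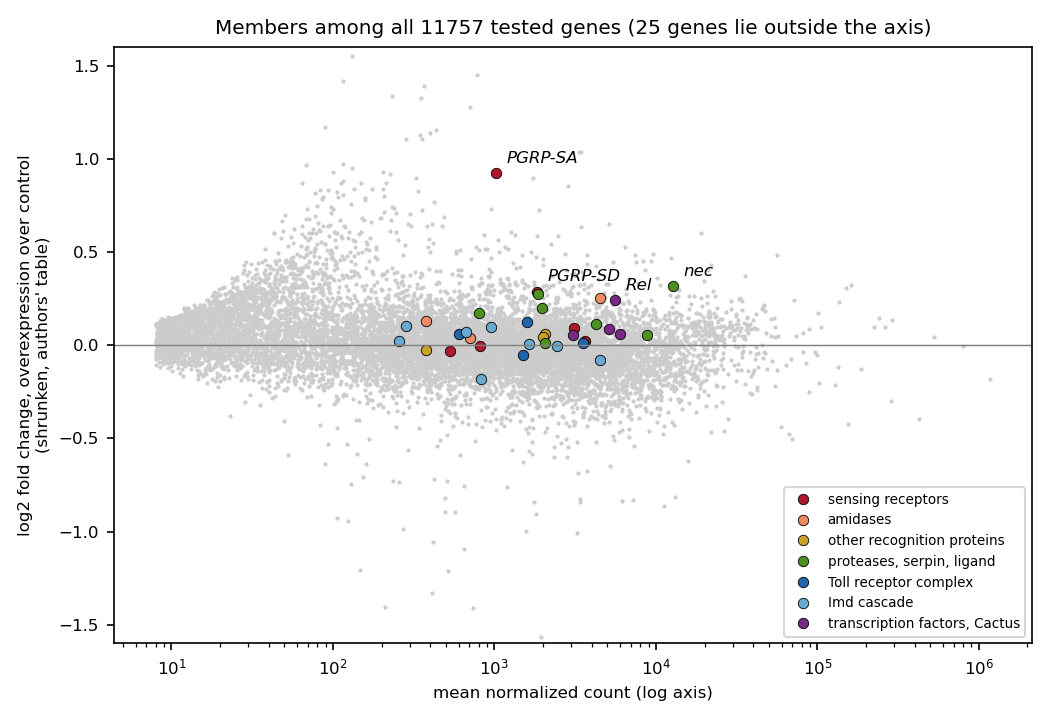
Log2 fold change in the authors' table, shrunken towards 0 (y axis), against mean normalized count (x axis, log scale) for all 11757 tested genes (grey) and the tested members (coloured by step), with 25 genes outside the y axis. Most members lie within 0.1 of 0, and PGRP-SA lies at 0.92.

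By step, the authors' Wald test called 2 of 12 tested recognition genes, 1 of 7 protease cascade genes, 0 of 12 cytoplasmic genes and 1 of 4 genes of the last step. All were higher, beside 5.66% of all tested genes called higher and 3.07% lower, and each step's count lay within 2 genes of that share. The median log2 fold changes of the steps were 0.05, 0.17, 0.02 and 0.07 in the authors' deposited table. The difference between steps was not tested. Both overexpression libraries lay above both controls in 16 of the 35 members and below them in 2, or in 15 and 2 of the 33 with a single solution. Over all 10084 genes with recovered reads and a mean of at least 10, the shares were 31.1% above and 24.0% below, and over the 7304 with a mean of at least 100 they were 23.8% and 29.0%. Of the protease cascade genes 4 of 5 with a single solution lay above, of the cytoplasmic genes 3 of 12 above and 2 below. Of the recognition genes 5 of 12 lay above and 0 below, and of the last step 3 of 4 above and 0 below. Limma on the recovered reads called 7 members higher and 0 lower, beside 8.62% of genes higher and 3.75% lower. The additional 3 were grass, psh and PGRP-SB1, and the call of nec rests on the chosen solution. Across 22 of the 35 members the log2 fold change was under 0.1 in size, and 27 had an adjusted p of 0.5 or more.

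**Figure D4:**
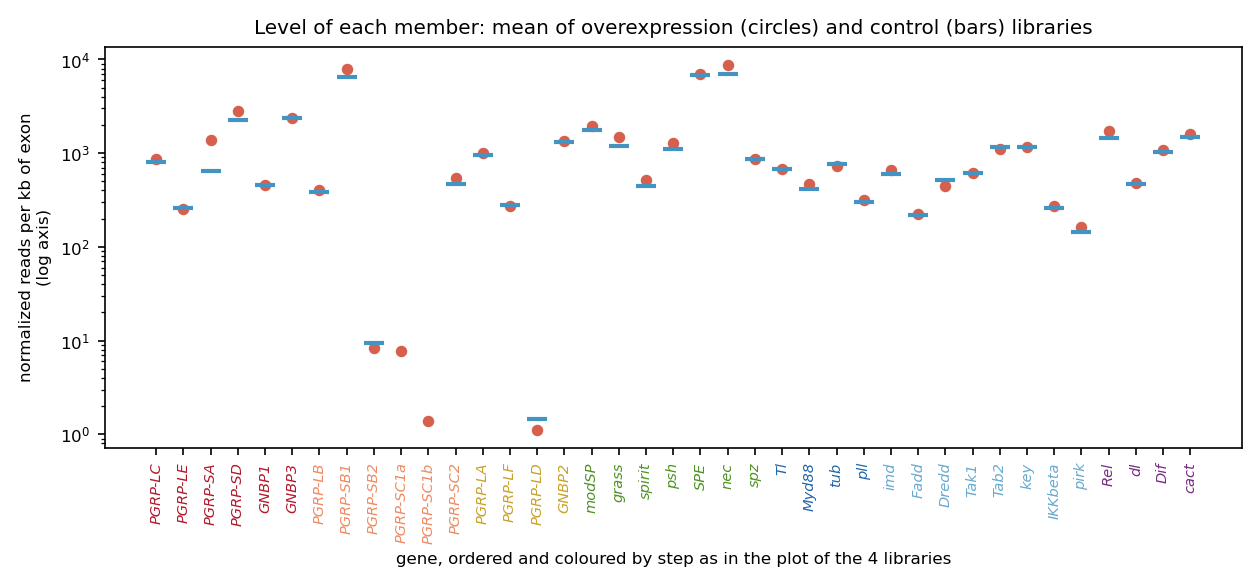
Mean normalized reads per kb of exon (y axis, log scale) in overexpression (red circles) and control (blue bars) libraries for the 39 members, ordered and coloured by step. The genes nec, PGRP-SB1 and SPE are highest and PGRP-SB2, PGRP-SC1a, PGRP-SC1b and PGRP-LD lowest, and PGRP-SC1a and PGRP-SC1b have no bar because they had no control read.

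Levels per kb of exon spread over a wide range among the members. After nec and PGRP-SB1 came SPE, at 6936 normalized counts per kb, then PGRP-SD at 2546, GNBP3 at 2378, modSP at 1862 and Rel at 1593. Secreted proteins of recognition and of the cascade thus led the order, and the highest cytoplasmic genes, key and Tab2, stood at 1155 and 1131. PGRP-SA was at 640 in the controls and 1374 in the overexpression libraries. That moved it from near the level of imd, at 603 in the controls, to between grass, at 1486, and GNBP2, at 1364, in the overexpression libraries. The exon lengths are those of the BDGP6.54 annotation, and the isoforms used in the head are not known from these files.

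Genes beside the called members were read for comparison. The gene that starts 21 bases after PGRP-SA, Polr2A, stood at 0.15 (adjusted p = 0.268) per the authors' deposited table, and Drak at 0.01. CG1572, 2989 bases before PGRP-SA, was called at 0.26 (standard error 0.0789, adjusted p = 0.0147) per the authors' deposited table. Of the serpin genes beside nec, Spn43Ad stood at 0.38 (adjusted p = 0.0618) and Spn43Ab at 0.11 (adjusted p = 0.145) per the authors' deposited table. Around Rel, none of the 6 nearest tested genes was called, and around PGRP-SD 1 of 6 was, Ank2 at -0.21 (adjusted p = 0.00249).

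Other genes of the 2 pathways were mostly not called. Of 27 tested Toll pathway genes outside the 39, 2 were higher and 0 lower by the authors' Wald test, both serpins. These counts stand beside 5.66% of all tested genes called higher and 3.07% lower. Spn27A, an inhibitor of melanization and of the embryonic Toll cascade, had 4939 and 4820 normalized reads in A and B against 3437 and 3716. It rose by 0.42 (standard error 0.0753, adjusted p = 1.55e-06) per the authors' deposited table. Spn28Dc, a serpin of the melanization cascade, had 2093 and 1911 against 1561 and 1515 and rose by 0.34 (standard error 0.0978, adjusted p = 0.00989) per the authors' deposited table. In both serpins the groups did not overlap. By limma the adjusted p was 0.0012 for Spn27A and 0.00652 for Spn28Dc, and neither was called without A or without B, at 0.253 and 0.286 for Spn27A and 0.202 and 0.176 for Spn28Dc.

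Of 31 tested Imd pathway genes outside the 39, 1 was higher and 1 lower, beside 5.66% and 3.07% of all tested genes. The ubiquitin-conjugating enzyme gene ben had 4046 and 4287 normalized reads in A and B against 5272 and 4862 and fell by 0.27 (standard error 0.0777, adjusted p = 0.0119) per the authors' deposited table. The homeodomain gene cad, which holds down Imd targets in the gut and patterns the posterior gut, had 65 and 60 recovered reads in A and B against 1 and 0. The ratio of summed reads was 101 for cad, with a 95% exact interval of 17.8 to 4023 that covers counting error only, and the shrunken log2 fold change in the authors' deposited table was 0.43 (standard error 0.11, adjusted p = 0.00268). The digestive enzyme markers, of which 20 and 17 of 35 had no read in C and D, moved with cad, and their part in its difference was not tested. Limma gave an adjusted p of 0.0168 for ben and 0.0113 for cad. Without A and without B these were 0.375 and 0.342 for ben and 0.176 and 0.206 for cad, and ben also stood at 0.167 without C.

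**Figure D5:**
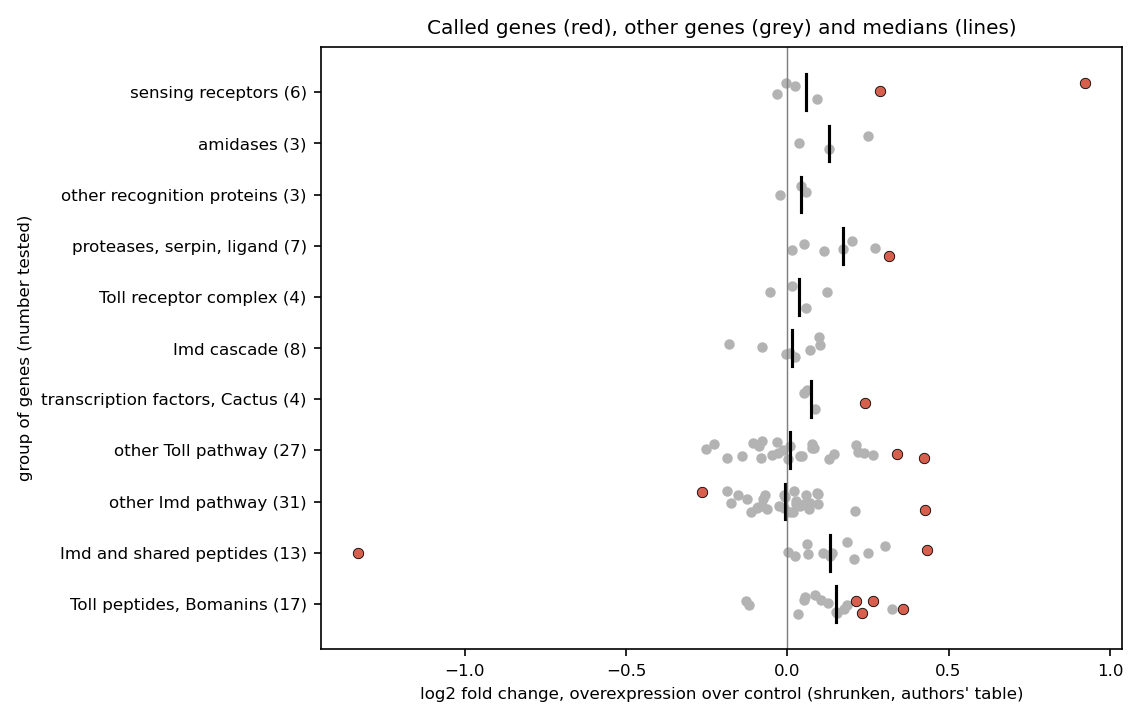
Log2 fold change in the authors' table, shrunken towards 0 (x axis), for each tested gene of the 7 groups of members and of 4 lists of other pathway and target genes (y axis), with called genes in red and each group's median as a line. PGRP-SA at 0.92 is the rightmost point and Def at -1.33 the leftmost, and the medians of the lists of other Toll and Imd pathway genes, 0.01 and -0.01, lie beside 0.

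Most peptide genes downstream had positive log2 fold changes, 12 of 13 tested targets of the Imd pathway or of both pathways and 15 of 17 of the Toll pathway, with medians of 0.13 and 0.15, beside 52.1% of all tested genes. Of the 13, 1 was called higher and 1 lower by the authors' Wald test, beside 5.66% and 3.07% of all tested genes. The diptericin gene DptB had 4024 and 4862 normalized reads in A and B against 2528 and 3523, at 0.43 (standard error 0.132, adjusted p = 0.0174) per the authors' deposited table. Def, the defensin gene, had 162 and 101 against 709 and 662 and fell by 1.33 (standard error 0.159, adjusted p = 8.4e-15) per the authors' deposited table. By limma the adjusted p of Def was 5.9e-05 and lay above the threshold, at 0.0656, without B. That of DptB was 0.0205, and 0.418, 0.567 and 0.146 without A, B and C. Of 17 tested antifungal peptide and Bomanin genes, targets of the Toll pathway, 4 were higher and 0 lower. The share called higher was 23.5%, beside 5.66% of all tested genes. BomBc1 had 11086 and 11732 normalized reads against 8953 and 8653, at 0.36 (standard error 0.0603, adjusted p = 2.06e-07) per the authors' deposited table. BomS2 stood at 0.27 (standard error 0.0485, adjusted p = 3.07e-06) and BomBc2 at 0.21 (standard error 0.0455, adjusted p = 1.44e-04) per the authors' deposited table, and reads were not recovered for these 2, whose mean normalized counts were 23148 and 19214. BomS1 was called at 0.23 (standard error 0.0682, adjusted p = 0.0123) per the authors' deposited table, with 2 read solutions, of which 1 has overlapping groups. By limma BomBc1 was at an adjusted p of 0.00256, and at 0.247 and 0.308 without A and B.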

How the data were processed

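Per the labels' protocols, oligo-dT enriched RNA of pooled heads was read from both ends of each fragment. The submitters' processing notes name STAR 2.5, HTSeq and DESeq2 1.22.1 and the BDGP6 build. The table the authors deposited holds per gene a mean normalized count (a signal averaged over libraries), a log2 fold change, its standard error and Wald score, and p-values and adjusted p-values. The adjusted p-values matched a Benjamini-Hochberg adjustment within 1.86e-06. A second comparison table, of 6 columns with unnamed groups, was not used.

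A quasi-likelihood count model was planned in case the files gave reads for each library. The table used here does not, so each gene's test is the authors' Wald test, with a call at an adjusted p under 0.05. The direction, overexpression over control, follows the group order in the table's name and the sign of Lam. Values shrink towards 0, so changes of genes with few reads are understated.

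Whole reads were recovered as combinations that return the printed mean, and, above a mean of 30, also the fold change and standard error under a ridge penalty of 9.73 on the squared log2 change. Single solutions were found for 5230 of 5230 genes up to a mean of 30, and for 1373 of 1375, 1282 of 1371, 2470 of 2496, 1540 of 1554, 1428 of 1487 and 564 of 632 up to means of 100, 300, 1000, 2000, 4000 and 6000. For 1404 of 1407 genes with means of 10 to 30, reads from the mean alone gave the deposited fold change within 1e-05. Each library's side was set by the sign of the deposited fold change of genes with 1 read in all. These reads are a reconstruction from the authors' summary values.

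They were tested with limma 3.58.1 (R 4.3.3), with a trend, on log2(normalized reads + 1) over 10084 genes with a mean of at least 10, chosen as an alternative after seeing the data. Recovery and limma were tested on simulated data, with the spread between libraries taken from the deposited standard errors. There limma missed most changes of the size of those in nec, PGRP-SD and Rel. With the recovered reads of all libraries limma called these genes, which the Wald test had already called, nec with the chosen solution. Whether the simulated spread matches that of the reads was not tested. A missed limma call does not show that a gene did not differ. With 1 library in a group, that library is assumed to vary like the other group. Intervals and ratios of reads cover counting error only. Exon lengths, gene positions and overlaps come from the BDGP6.54 annotation, and whether counting used strand is not given in the sources used here. No sequence is printed, as no genome of the files' build was given.

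The members and lists were chosen with earlier results of these data known, and 245 of 257 listed symbols were in the table. Every member is named with its level and log2 fold change. Where several solutions of reads fitted, limma used the one with the smallest spread within groups, which favours calls of these genes. Called members, and in each step without one the member with the largest Wald score, are given in full, as are called genes of the other pathway and target lists, at most 6 a list by smallest p-value.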

Additional observations from a re-analysis of the deposited data

How the results depend on the processing

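No paired analysis was possible because the deposited table carries no replicate numbers and the recovered libraries have none. The quasi-likelihood test on recovered reads and scaling by head and neuron genes were not run, the latter because reads of only 3 of 10 such genes were recovered. The direction of the 4 called members was kept under every alternative run, for nec with the chosen solution of its reads, and the median log2 fold change of the members lay between 0.03 and 0.10 in all of them, beside 0.06 as deposited. Adjusting over every gene with a p-value or over genes with a mean of at least 100 left the members' calls at 4. The threshold of 0.01 gave 3 and that of 0.1 gave 6. At 0.01, the calls were 1 for recognition, 1 for the other Imd genes and 1 for the Imd and shared peptides. At 0.1 the protease cascade had 2. The shares of all genes called at 0.01 and 0.1 are not given here, so these counts are not set against a background. Among genes with a mean of at least 100 the other Imd genes had 1, since cad is below it. Limma called 7 members, 3 of the protease cascade and 4 other Toll genes, with size factors and with upper-quartile scaling, and, with the size factors, 2 of the 13 Toll peptides in its fit. The other 2 called by the Wald test, BomS2 and BomBc2, were not in that fit. The cause of the other moves was not tested. With each library left out in turn, limma called 0 to 3 members, 0 to 2 recognition genes, 0 to 1 cascade genes, 0 of the last step, 0 to 4 other Toll genes, 0 to 2 other Imd genes, 0 to 4 Imd and shared peptides and 0 to 3 Toll peptides. The lowest count, 0 members, came without library A, when 301 of 10084 genes were called higher and 13 lower, against 869 and 378 with all 4. Among the fits with a library left out, the share of all genes called higher was largest without D, where the most members were called. Upper-quartile scaling put 20 members, in place of 16, wholly above the controls. It also raised the median limma log2 change over all 10084 genes, from 0.016 to 0.047. The share of all genes wholly above the controls with this scaling is not given here. Depth limits PGRP-SB2, PGRP-SC1a, PGRP-SC1b and PGRP-LD, each with at most 13 reads in a group.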
